A study of Mus musculus with 80 samples.

Results

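Between day 6 (D6) and day 8 (D8) of the chemical reprogramming of mouse embryonic fibroblasts, the deposited peaks of H3K27ac were exchanged to a large extent, and more genes of the epithelial programme entered the list than left it. H3K27ac is the acetylation of histone H3 at lysine 27, a mark of active promoters and enhancers. The comparison took the 17229 H3K27ac peaks of D8 and the 22598 of D6 on chromosomes 1 to 19, X and Y, out of 197637 such peaks over 8 stages. A peak that shared at least 1 bp with the list of the other day was called kept, a D8 peak without such a partner gained, and a D6 peak without one lost. There were 6220 gained peaks and 11618 lost peaks. Of 60 epithelial genes, 14 had a peak near a gene start at D8 only (23.3%) and 6 at D6 only (10%), beside 5.66% and 7.67% of all genes. Among peaks with a −log10 p-value of at least 10 these counts were 9 and 5. All gene lists here were chosen with earlier results of these data known, so the counts describe the sets and are not separate evidence. Of 76 fibroblast and mesenchymal genes, 6 had a peak near a gene start at D8 only (7.89%) and 17 at D6 only (22.4%). The counts were 9 and 11 with lists of equal length, the strongest D6 peaks by −log10 p-value in the number of the D8 peaks. That cut removes D6 peaks only, and all genes then gave 7.65% at D8 only and 5.86% at D6 only.

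The D8 and D6 cells are labelled as reprogramming intermediates, and both were collected from cultures started from fibroblasts (MEFs) of embryonic day 13.5 embryos of a 129 by OG2 cross, used at passages 1 to 3. OG2 is a transgene in which regulatory sequence of Pou5f1 drives a green fluorescent protein. The cultures were kept in a reprogramming medium, renewed every 2 days and, on days 4 to 8, every day, so D8 closes the stretch of daily changes that D6 lies within. The compounds in that medium are not given in the sources used here. Untreated MEFs (D0), cells of D2, D4, D10 and D12, and the final induced pluripotent stem cells (iPSCs), which grew on feeder cells in N2 and B27 medium with LIF, CHIR99021 and PD0325901, serve below as a time axis. The assay was CUT&Tag, in which a transposase tethered by an antibody cuts and tags DNA beside the mark. The labels name 2 libraries for each stage, but 1 peak list was deposited per stage, so no value has a replicate spread and no test between D8 and D6 was possible. The lists describe whole cultures, in which fewer cells that carry a mark and less of the mark per cell cannot be told apart.

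A fibroblast is a mesenchymal cell, spindle-shaped, surrounded by collagen-rich matrix and held by N-cadherin. Pluripotent cells are epithelial, with E-cadherin adhesion and tight junctions, and a mesenchymal-to-epithelial transition is a known early phase of reprogramming by factors. GRHL and OVOL transcription factors, the ESRP splicing regulators and the miR-200 microRNAs act for the epithelial state, whereas SNAI, ZEB and TWIST repressors bind E-boxes and act against it. H3K4me3 marks promoters, H3K18la is a lactate-derived mark of active regions, H3K27me3 marks genes repressed by Polycomb and H3K9me3 marks heterochromatin.

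The promoter sequences below belong to 3 epithelial genes with a peak at D8 only, Epcam, Spint2 and Ocln, which kept that status under every setting tried, then to the epithelial gene Cgn and the contractile gene Acta2, which had a peak at D6 only. They are RefSeq sequences of GRCm38.p6, 250 bp before to 50 bp after the annotated start, each on the gene's own strand. Capitals mark matches to the E-box CAGGTG bound by SNAI and ZEB repressors, to the GRHL motif AACCNGTT, to the AP-1 motif TGANTCA, to the TEAD motif GGAATG, to the GATA motif AGATAA, to the SOX motif AACAATG and to the FOX motif TGTTTAC, on either strand.
Epcam, chr17:87635729-87636028, plus strand: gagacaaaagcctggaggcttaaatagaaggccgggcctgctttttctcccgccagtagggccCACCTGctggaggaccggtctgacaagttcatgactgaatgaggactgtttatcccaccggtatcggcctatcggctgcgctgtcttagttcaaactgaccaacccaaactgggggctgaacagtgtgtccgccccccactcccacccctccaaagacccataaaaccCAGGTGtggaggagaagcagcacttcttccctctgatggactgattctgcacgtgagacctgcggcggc
Spint2, chr7:29281928-29282227, minus strand: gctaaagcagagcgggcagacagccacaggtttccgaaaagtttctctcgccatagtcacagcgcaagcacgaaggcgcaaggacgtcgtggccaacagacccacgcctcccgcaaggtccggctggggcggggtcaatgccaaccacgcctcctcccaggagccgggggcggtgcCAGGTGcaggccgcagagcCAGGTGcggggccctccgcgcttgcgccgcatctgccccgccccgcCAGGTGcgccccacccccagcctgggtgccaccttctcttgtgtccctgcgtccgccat
Ocln, chr13:100552449-100552748, minus strand: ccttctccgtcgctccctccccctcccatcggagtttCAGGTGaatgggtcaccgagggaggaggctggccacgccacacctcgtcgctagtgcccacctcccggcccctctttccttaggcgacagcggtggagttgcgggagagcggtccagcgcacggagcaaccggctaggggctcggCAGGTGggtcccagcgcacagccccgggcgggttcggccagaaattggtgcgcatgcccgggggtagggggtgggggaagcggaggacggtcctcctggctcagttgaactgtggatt
Cgn, chr3:94786433-94786732, minus strand: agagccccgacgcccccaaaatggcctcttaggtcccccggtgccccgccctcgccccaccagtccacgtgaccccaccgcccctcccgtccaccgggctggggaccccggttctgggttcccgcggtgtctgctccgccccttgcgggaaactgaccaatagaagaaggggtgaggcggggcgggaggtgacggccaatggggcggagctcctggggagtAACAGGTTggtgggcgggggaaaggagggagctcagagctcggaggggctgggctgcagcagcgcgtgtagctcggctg
Acta2, chr19:34255324-34255623, minus strand: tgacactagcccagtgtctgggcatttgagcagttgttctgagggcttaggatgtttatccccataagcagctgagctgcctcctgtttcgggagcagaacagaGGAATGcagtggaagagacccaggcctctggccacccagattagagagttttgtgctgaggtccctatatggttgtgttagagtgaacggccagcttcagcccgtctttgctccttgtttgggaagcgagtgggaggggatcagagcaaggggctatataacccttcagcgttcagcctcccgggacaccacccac

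Mature microRNAs of the miR-200 and miR-183 families are shown because regions upstream of the miR-200b and miR-183 clusters carried peaks at D8 that were not in the D6 list. MiR-200c and miR-141, whose cluster had no such peak at D8, are shown for their shared seeds. The capitals are the seed, bases 2 to 8. MiR-200b, miR-429 and miR-200c share one seed, miR-200a and miR-141 another, while miR-183, miR-96 and miR-182 have 3 different seeds.
miR-200b-3p: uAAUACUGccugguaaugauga
miR-429-3p: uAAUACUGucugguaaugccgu
miR-200c-3p: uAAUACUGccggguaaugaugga
miR-200a-3p: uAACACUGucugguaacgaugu
miR-141-3p: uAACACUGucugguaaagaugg
miR-183-5p: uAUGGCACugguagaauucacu
miR-96-5p: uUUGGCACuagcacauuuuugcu
miR-182-5p: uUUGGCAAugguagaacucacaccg

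The depth behind both lists was similar as far as the peaks show it. The commonest local background of a peak was 3.06 fragments in the D8 list and 3.17 in the D6 list, and the median pileup was 27 fragments in both. Markers of cell types that the cultures could also hold had a peak near a gene start less often than all genes, 42.6% of which had one at D8 and 44.6% at D6. The neuronal share at D6, 37.5%, was the nearest to this, and the part of such cells in the cultures was not tested. Endothelial markers had one for 2 of 8 genes at D8 and 2 at D6, blood and macrophage markers for 1 of 8 and 0, neuronal markers for 2 of 8 and 3, skeletal muscle markers for 1 of 8 and 1, and hepatic markers for 1 of 7 and 1. A missing peak says that the list holds none there, not that the mark was absent.

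Turnover was concentrated away from annotated gene starts. Distal peaks, those not near a start, include peaks inside genes. Of the D8 peaks, 36.1% were gained (95% Wilson interval 35.4 to 36.8%), and of the D6 peaks 51.4% were lost (50.8 to 52.1%). The intervals here and below cover counting error only, and neighbouring peaks are not independent. Within 1.0 kb of the start of a protein-coding gene, or of either end where no start was annotated, 1449 of 8620 D8 peaks were gained, or 16.8% (16.0 to 17.6%), and 1942 of 9107 D6 peaks were lost, or 21.3% (20.5 to 22.2%). Among distal peaks, 4771 of 8609 D8 peaks were gained, or 55.4% (54.4 to 56.5%), and 9676 of 13491 D6 peaks were lost, or 71.7% (71.0 to 72.5%). Gene-near peaks thus made up 23.3% of the gained peaks and 16.7% of the lost ones, against 65.1% of the D8 peaks that were kept. Measured in covered bases, 58.9% of the 10.99 Mb under D8 peaks and 42.6% of the 15.19 Mb under D6 peaks were shared.

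Part of the surplus of lost over gained peaks followed the greater length of the D6 list. When the 5369 D6 peaks with the lowest −log10 p-values were set aside so that each list held 17229 peaks, 7201 D8 peaks were gained, or 41.8%, and 7241 D6 peaks were lost, or 42.0%. At equal length the order among gene-near peaks turned, with 21.4% of D8 peaks gained and 17.5% of D6 peaks lost. The excess of distal over gene-near turnover did not depend on the cut, since 62.2% of distal D8 peaks were gained and 64.3% of distal D6 peaks were lost.

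Gained and lost peaks were the narrower and weaker peaks of their lists. Gained peaks had a median width of 429 bp and a median pileup of 22 fragments, and the D8 peaks that were kept had 669 bp and 31 fragments. Lost peaks had a median width of 497 bp and a median pileup of 23 fragments, against 744 bp and 33 fragments for the D6 peaks that were kept. When each list was ordered by p-value and divided into 10 equal parts, the share gained was 71.2% in the weakest part of the D8 list and 2.55% in its strongest, and the share lost was 84.2% in the weakest part of the D6 list and 3.05% in its strongest. The plot of these shares slopes down on both days. The part of nearness to the calling threshold in the exchange was not tested.

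**Figure D1:**
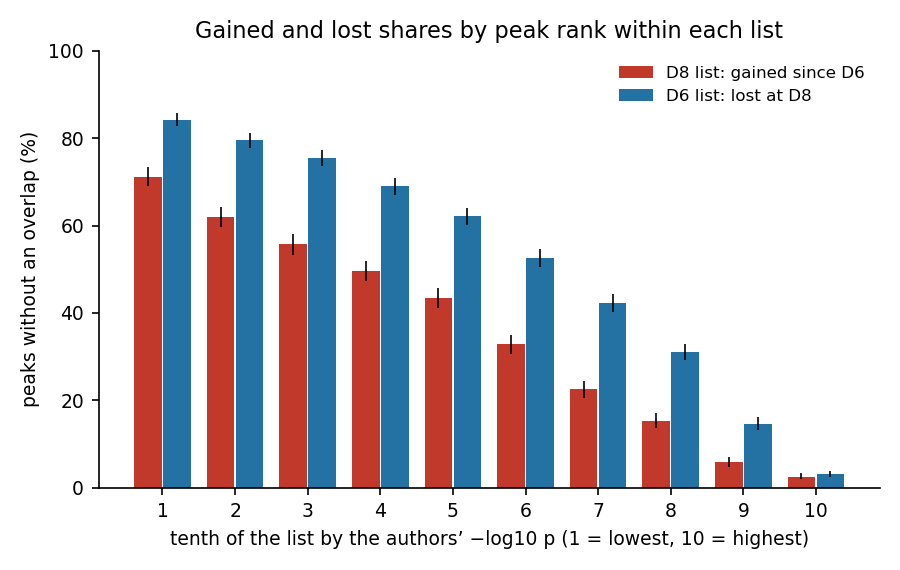
Share of D8 peaks gained and of D6 peaks lost (%, vertical axis) in 10 equal parts of the list ordered by the authors' −log10 p-value (horizontal axis, weakest to strongest), with 95% Wilson intervals. At D8 the share is 71.2% in the weakest part and 2.55% in the strongest, and at D6 it is 84.2% and 3.05%.

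The other stages gave the exchange a direction in time. Gained peaks overlapped the lists after D8 more often than lost peaks did, with 49.0% of gained and 17.6% of lost peaks found at D10, 47.5% and 20.2% at D12, and 17.7% and 8.18% in iPSCs. Before D6 the shares lay closer, and lost peaks were the more frequent: 41.3% of gained and 48.9% of lost peaks overlapped a D0 peak, 27.7% and 39.8% a D2 peak, and 20.3% and 22.5% a D4 peak. Peaks kept at D8 were found in 90.1% at D0, 76.7% at D4, 79.2% at D10 and 52.6% in iPSCs. The difference at D10 was present at each level of peak strength. With the peaks divided by p-value into 3 parts, weakest, middle and strongest, 34.1%, 47.9% and 69.1% of gained peaks were found at D10, against 11.6%, 15.9% and 24.6% of lost peaks. The plot over the 8 stages shows gained and lost peaks crossing between D4 and D10.

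**Figure D2:**
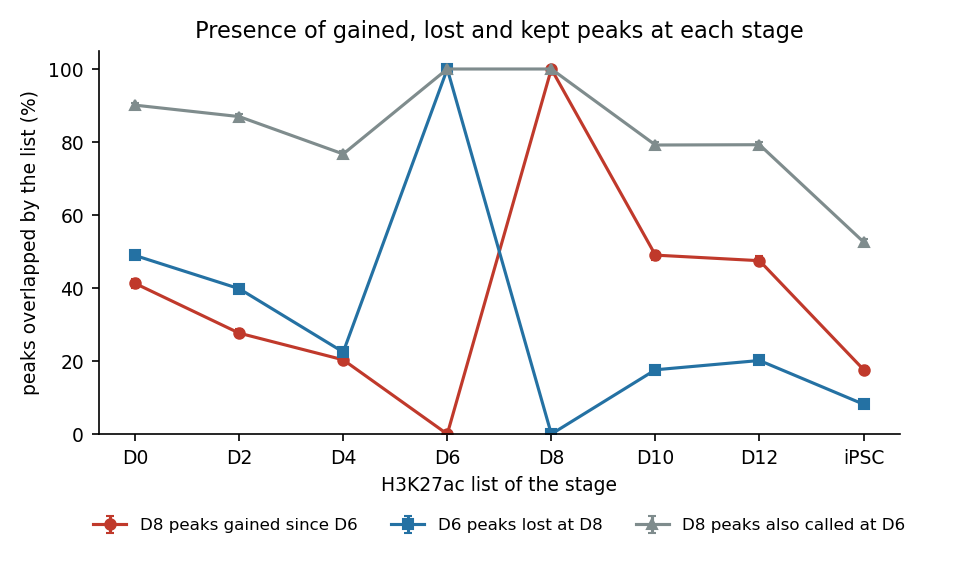
Share of gained, kept and lost peaks (%, vertical axis) that overlap the H3K27ac list of each stage (horizontal axis, D0 to iPSC), with 95% Wilson intervals mostly smaller than the symbols. Gained peaks reach 49.0% at D10 and lost peaks 17.6%, while at D0 the shares are 41.3% and 48.9%; the values at D8 and D6 follow from the definition of each class.

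A gained peak was not necessarily new. Of the 6220 gained peaks, 3025, or 48.6%, overlapped a peak of D0, D2 or D4, so that region had been in a list before and was missing at D6. For 858 of them, or 13.8%, the gap was D6 alone between D4 and D10. The other 3195 had no peak at D0 to D4, and 884 of these, or 27.7%, were present at both D10 and D12. In addition, 1394 gained peaks, or 22.4%, appeared in the D8 list and no other. Among lost peaks, 7306, or 62.9%, had overlapped a D0, D2 or D4 peak, 3298, or 28.4%, came back at D10, D12 or in iPSCs, and 3652, or 31.4%, appeared at D6 only. Lost peaks without an earlier counterpart were found at D10 in 7.70% and those with one in 23.5%.

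Of the other marks, H3K4me3 and H3K18la covered kept regions far more often than exchanged ones, and kept peaks were also more often gene-near. H3K4me3 overlapped 34.2% of gained peaks at D8 and 30.9% at D6, while it overlapped 29.6% of lost peaks at D8 and 31.8% at D6, and 82.3% of the kept D8 peaks at D8 and 82.5% at D6. Among gene-near peaks, H3K4me3 at D8 overlapped 91.4% of gained, 90.7% of lost and 99.4% of kept D8 peaks. Among distal peaks these shares were 16.9%, 17.3% and 50.4%. For H3K18la at D8 they were 38.9%, 35.6% and 74.5% gene-near, and 10.6%, 10.4% and 40.1% distal. H3K18la overlapped 17.2% of gained peaks at D8 and 21.4% at D6, and 14.7% of lost peaks at D8 and 27% at D6. Its own list was shorter at D8, with 13764 peaks against 18455 at D6, so the shares at D8 are held down in every class, and in kept regions it was 62.5% at D8 and 74.7% at D6. H3K27me3 overlapped 7.68% of gained peaks at D8 and 6.45% at D6, and 9.72% of lost peaks at D8 and 6.90% at D6, with 13383 H3K27me3 peaks in the D8 list and 7574 in the D6 list. H3K9me3 was scarce under all classes. It overlapped 124 gained peaks at D8 (1.99%) and 143 at D6 (2.30%), against 30 lost peaks at D8 (0.258%) and 34 at D6 (0.293%). Among kept D8 peaks the shares were 2.03% at D8 and 2.24% at D6, so the gained peaks were near the kept ones and the lost peaks lower.

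Counted by gene, the exchange near starts was smaller. Of 21883 protein-coding genes, 9329 had a gene-near H3K27ac peak at D8 and 9769 at D6, and 8091 had one on both days. The genes with one at D8 only numbered 1238, or 5.66% of all genes, and those with one at D6 only 1678, or 7.67%. With lists of equal length the D8-only genes were 7.65% and the D6-only genes 5.86%. That cut removes D6 peaks only, so counts of D8-only genes could not fall and counts of D6-only genes could not rise. Most of these genes had carried the mark in MEFs, since 83.1% of the D8-only genes and 80.9% of the D6-only genes had a gene-near peak at D0. The classes stood further apart at D10, where 73.7% of D8-only and 54.5% of D6-only genes had a peak. Only 142 of the 1238 D8-only genes had no gene-near peak at D0, D2 and D4, and 52 of these had one at both D10 and D12.

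The 10 named genes with the highest fold enrichment at D8 and no D6 peak included none of the listed epithelial genes. Fold enrichment is the authors' own value for a peak, the pileup at its summit over its local background, and genes are ranked by it only within a list. Where values of a gene from several stages stand side by side, a difference between them was not tested as a change in the mark. Acot4, a peroxisomal acyl-CoA thioesterase, led with 9.95 at D8, followed by Washc4, a subunit of the endosomal WASH complex, with 9.25, and the mitochondrial dehydrogenase Aldh4a1 with 8.66. Abraxas2 (7.70), the arginine methyltransferase Prmt5 (7.64), Daw1 (7.61), the COPII GTPase Sar1b (7.40), the cytochrome oxidase subunit Cox6b1 (7.29), Zfp346 (7.20) and Fyttd1 (7.20) completed the set. All 10 had gene-near H3K27ac peaks at D0 and at D10, 8 had one at D4, and all 10 had H3K4me3 at D8 and at D6. These strong D8 peaks therefore stood at starts that were marked before and after D6.

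The strongest D6 peaks without a D8 counterpart were of the same mixed kind. Pabpc5 had a fold enrichment of 8.64 at D6, a single peak shared by Prn and the prion protein gene Prnp had 8.60, the NADPH oxidase Nox4 had 8.49 and Yipf5 had 8.27. Micu2 (7.94), a regulator of the mitochondrial calcium uniporter, Ildr1 (7.90), a protein of tricellular junctions, Khdrbs2 (7.73), Layn (7.70) and Lipo2 (7.68) followed. Of these 10 genes, 7 had a peak at D0, 5 at D10 and 9 at D12. Ildr1 had no peak at D0 to D4 but had one at D10 with 7.0 and at D12 with 7.15, so from D6 on this junction gene was missing at D8 alone.

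A stricter rule took genes with a peak at D8, D10 and D12 and none at D0 to D6. Fsbp led with a fold enrichment of 6.77 at D8, followed by the flavin monooxygenase Fmo5 with 6.16, Tmem45b with 6.13 and the interferon-induced oligoadenylate synthetase Oas1a with 6.12. Ccdc170 (5.36), H2-M5 (5.25), Popdc3 (5.17), Slc35f2 (5.11), Mal2 (4.93), a protein of apical transcytosis in epithelial cells, and Fbxo40 (4.68) were the others. Of these 10 genes, 7 had H3K4me3 at D8 and 6 at D6, and 4 had an H3K27ac peak in iPSCs.

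Epithelial adhesion and junction genes had more members with a peak at D8 only than at D6 only, and the margin was small. Of 32 such genes, 6 had a gene-near peak at D8 only, 4 at D6 only and 9 on both days, and 13 had none. With a gene window of 2.5 kb the counts were 6 and 6. With lists of equal length they were 9 and 2, beside 7.65% and 5.86% of all genes. Epcam, the epithelial cell adhesion molecule, was in the D8 list with a fold enrichment of 3.72, in the D10 list with 3.21 and in the D12 list with 4.88, and in no other. Its D8 peak, at chr17:87636761-87637125, had a pileup of 34 fragments over a background of 8.40 and lay downstream of the start shown above, not over the printed bases. Ocln, which encodes the tight-junction protein occludin, had 4.06 at D8, 4.93 at D10 and 6.60 at D12, and it had also been listed at D2 with 4.47 and at D4 with 5.84. D6 was therefore a gap for Ocln and not a state before its first mark.

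Other junction genes with a D8-only peak differed in their history. Marveld3, a tight-junction protein related to occludin, had 4.11 and the desmosomal envoplakin gene Evpl had 3.99, both at D8 and at no other stage. The junctional adhesion molecule gene F11r had 2.91 at D8, 4.39 at D0, 4.18 at D10 and 4.13 at D12. In the opposite direction, P-cadherin Cdh3 had 3.35 at D6, claudin Cldn3 had 3.59, cingulin Cgn had 4.90 and plakoglobin Jup had 4.22, and none of the 4 had a D8 peak. Cldn3 and Jup were listed again at D10, Cdh3 at D12 and Cgn at no later stage.

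Cdh1, the E-cadherin gene, had a gene-near peak on both days. It had a fold enrichment of 4.04 at D8 and 4.41 at D6, and its peak was in every list from D2 (5.33) to iPSCs (4.51) but not at D0. Among peaks with a −log10 p-value of at least 10 it was called at D8 only. A lost distal peak of fold enrichment 5.56 at D6 lay 16.7 kb from the nearest annotated start or end of the gene, a distance that does not place it outside the gene. Marveld2, with 4.74 at D8 and 4.32 at D6, and Lsr, with 4.06 at D8 and 4.47 at D6, both proteins of tricellular junctions, had no peak at D0 to D4, so D6 was their first day. The desmosomal genes Dsp, Dsg2 and Dsc2 and the laminin gene Lama3 were also listed on both days.

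Epithelial regulators and simple keratins showed the wider margin. Of 28 genes, 8 had a gene-near peak at D8 only, 2 at D6 only and 4 on both days, and 14 had none. Among peaks with a −log10 p-value of at least 10 the margin was gone, with 2 at D8 only and 2 at D6 only. The protease inhibitor genes Spint2 and Spint1 had fold enrichments of 5.05 and 3.48 at D8, and Prss8, a membrane serine protease of epithelia that they inhibit, had 3.58. The transcription factor genes were Grhl2, a grainyhead-like activator of junction genes, with 4.23, Ovol2, a repressor of mesenchymal genes, with 3.56, and Elf3, an epithelial ETS factor, with 2.71. Esrp2, an epithelial splicing regulator, had 3.20 and the keratin gene Krt7 had 2.81. Grhl1, with 3.90 at D6, and Krt19, with 4.86 at D6, were the reverse cases, and Krt19 was listed again at D10 and D12. Klf4, Klf5 and St14 were among the genes with a peak on both days.

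Several of these regulators had been marked in the starting fibroblasts. Ovol2 had 4.71 at D0 and 3.99 at D2, Esrp2 had 4.83 at D0, Elf3 had 3.40 at D0, and Spint1 and Spint2 had 4.72 and 3.91 at D0. Grhl2 had 6.59 at D4. Prss8 had no peak at D0 to D6 and was listed again at D12 with 4.24, and Krt7 was in the D8 list alone. The heat map of members shows these interrupted histories beside the few first appearances.

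**Figure D3:**
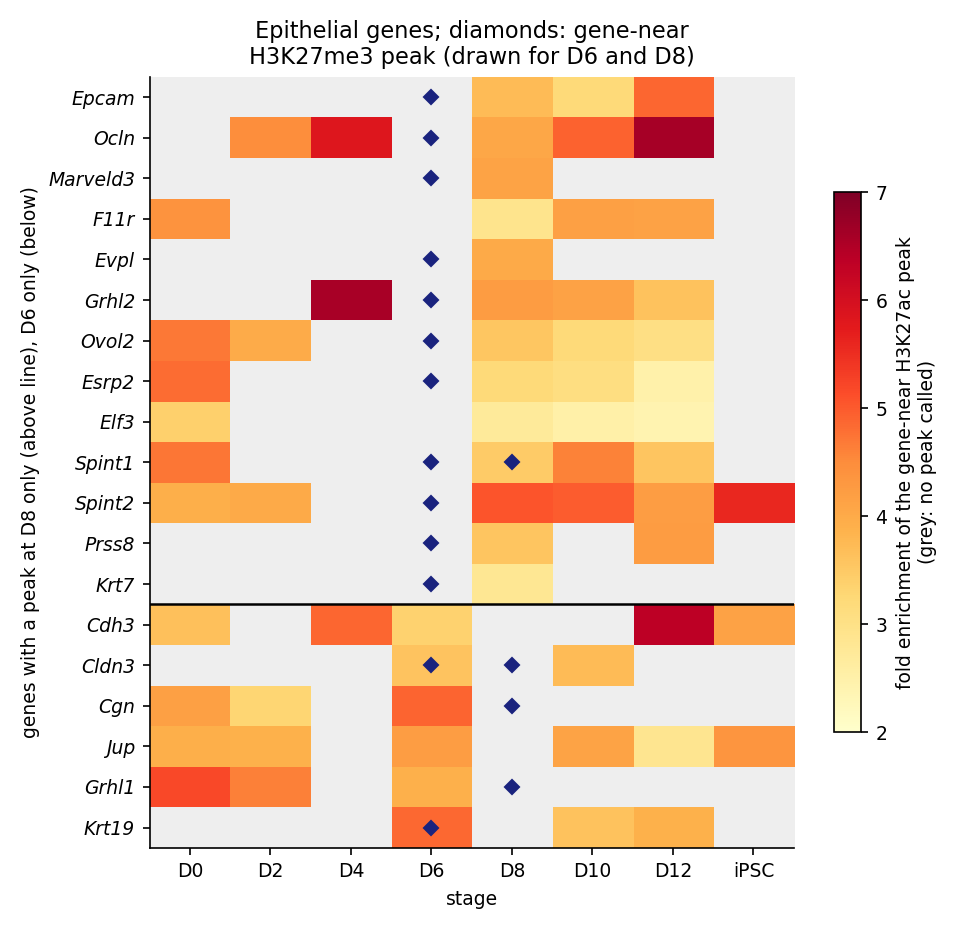
Authors' fold enrichment (colour) of the gene-near H3K27ac peak of 13 of the 14 epithelial genes with a peak at D8 only (above the line) and the 6 with a peak at D6 only (below it), at each stage (columns, D0 to iPSC), in grey where the list holds no peak. The columns come from separate lists, and differences in colour between them were not tested. Diamonds mark a gene-near H3K27me3 peak and were drawn for D8 and D6. The D8-only genes drawn lie between 2.71 and 5.05 at D8, 6 of them also have a peak at D0, and 1 of them has a diamond at D8 against 11 at D6.

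Taken as 1 set of 60 genes, the epithelial lists had 14 D8-only members, or 23.3%, beside the 5.66% of all genes, and 6 D6-only members, or 10%, beside 7.67%. With equal lengths all 14 kept their D8-only status, which the cut could not change because it removes D6 peaks only. The set then had 17 D8-only and 4 D6-only members, beside 7.65% and 5.86% of all genes. Among peaks with a −log10 p-value of at least 10 there were 9 and 5, and of the 14 genes 5 remained, among them Epcam, Ocln, Spint2 and Prss8. Of the 14, 7 had a peak at D0, 4 at D2 and 2 at D4, and 5 had none at any of these stages: Epcam, Marveld3, Evpl, Prss8 and Krt7. After D8, 10 were listed at D10, 11 at D12 and 2 in iPSCs. Of the 27 members with no peak on either day, 15 had one at D10 or D12, among them Cldn4, Cldn6, Cldn7, Esrp1, Krt8 and Krt18, and 10 had one at no stage. D8 thus holds neither the beginning nor the height of the series: of the 60 genes, 22 were listed at D0, 18 on D2, 14 on D4, 19 on D6, 27 on D8, 38 on D10, 37 on D12 and 12 in iPSCs. At D6, D8 and D10 this was 31.7%, 45.0% and 63.3% of the set, where all genes gave 44.6%, 42.6% and 47.8%.

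The D8-only peaks of these genes were weaker by fold enrichment than the D8 list as a whole. Their fold enrichments at D8 ran from 2.71 to 5.05 with a median of 3.59, where all gained peaks had a median of 3.95 and all D8 peaks 4.42, and those of the 13 epithelial genes listed on both days from 3.42 to 5.17 at D8 with a median of 4.43. The 6 D6-only peaks ran from 3.35 to 4.90 at D6 with a median of 4.06. The pileups of the 14 ran from 21 fragments, at Ovol2, to 39, at Spint2, with 22 at Grhl2, 23 at Marveld3 and 24 at Evpl and Krt7. Esrp2 had 33, and Elf3 and Epcam had 34. The median pileup was 27 over all D8 peaks and 22 over gained peaks, so by pileup the 14 lay on both sides of these medians. The background was 6.91 at Spint2, while Prss8 had 38 over 9.90 and Ocln 33 over 7.38 at D8, while Krt19 had 31 over 5.59 and Cgn 24 over 4.10 at D6.

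H3K27me3, the Polycomb mark, ran the other way at the same genes. Over all genes a gene-near H3K27me3 peak was present at D8 only for 6.05% and at D6 only for 2.81%. Of the 60 epithelial genes, 13 had such a peak at D8 and 26 at D6, with 6 at D8 only and 19 at D6 only, against the direction of the whole list. Of the 14 genes with H3K27ac at D8 only, 1 had H3K27me3 at D8, Spint1, and 11 had it at D6. For 10 of the 14 both changes fell together, with H3K27ac at D8 only and H3K27me3 at D6 only: Epcam, Ocln, Marveld3, Evpl, Grhl2, Ovol2, Esrp2, Spint2, Prss8 and Krt7. This pairing was found for 16.7% of the epithelial genes (9.31 to 28.0%) and for 75 of all 21883 genes, or 0.343%. The epithelial genes were chosen with the course of both marks already known, so the pairing is a description of the set and not separate evidence.

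The other epithelial members were less uniform in H3K27me3. Of the 13 with H3K27ac on both days, 2 had H3K27me3 at D8 and 6 at D6, and Cdh1, Dsc2, Dsg2 and St14 were among those with it at D6 only. Of the 6 with H3K27ac at D6 only, 3 had H3K27me3 at D8 and 2 at D6, and for Cgn and Grhl1 the pairing was reversed, with H3K27me3 at D8 only. H3K4me3 was present near all 14 D8-only genes at D8 and near 12 at D6. H3K18la was near 6 of the 14 at D8, among them Epcam, F11r, Ovol2, Elf3 and Spint2, and near 4 at D6, and H3K9me3 near none on either day.

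Fibroblast and mesenchymal genes had the reverse balance. Of 76 genes, 6 had a gene-near H3K27ac peak at D8 only, or 7.89% beside 5.66% of all genes, and 17 at D6 only, or 22.4% beside 7.67%, and 20 had one on both days. With lists of equal length the counts were 9 and 11, beside 7.65% and 5.86% of all genes. Among peaks with a −log10 p-value of at least 10 they were 2 and 13. Contractile and surface genes contributed 1 D8-only and 6 D6-only members of 20. Acta2, smooth-muscle actin, had 4.59 at D6 with a pileup of 27 fragments over 5.10, after 6.45 at D0 and 5.19 at D2, and was listed at D10 with 4.20. Cnn2, a calponin, had 3.21, Cd44, the hyaluronan receptor, 3.88, Cdh2, N-cadherin, 3.68, Thy1, a fibroblast surface protein, 2.89 and S100a4 2.88 at D6. Of these, Cdh2, Thy1, Cnn2 and S100a4 had no peak at any stage from D8 on. Pdgfrb was the only gene of that list with a peak at D8 only, with 3.78.

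Matrix genes contributed 2 D8-only and 7 D6-only members of 28. With lists of equal length they gave 4 and 3, so the direction turned, as it did over all genes (7.65% and 5.86%). The collagen genes Col1a2 and Col3a1 had 2.91 and 3.33 at D6, the matricellular genes Postn and Thbs2 had 3.94 and 2.92, and Fbln5, Lum and Timp3 had 3.52, 4.25 and 3.13. Dcn, with 2.97, and Loxl1, with 3.40, were listed at D8 and not at D6. Fn1, Fbn1, Sparc, Col5a1, Col5a2, Col6a2, Col6a3 and Fbln2 had a peak on both days.

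Mesenchymal transcription factor genes were nearly balanced, with 3 D8-only and 4 D6-only members of 28. The counts were 4 and 2 with lists of equal length, where the direction turned as it did over all genes. They were 0 and 3 among peaks with a −log10 p-value of at least 10. Twist1, a repressor of the epithelial state, had 2.18 at D6 after 4.04 at D0, 2.99 at D2 and 2.55 at D4, and had 3.94 at D10 and 4.23 at D12, so it was missing at D8 alone before the iPSC stage. Tbx15, Msx1 and Runx1 were the other D6-only genes. Zeb1, a repressor of Cdh1 and of the miR-200 genes, was listed at D8 with 4.02 and not at D6, and Runx2 with 4.68 and Heyl with 4.31 were the other D8-only genes. Snai2, with 6.06 at D8 and 5.18 at D6, and Twist2, with 3.04 at D8 and 2.71 at D6, were listed on both days.

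Fewer fibroblast genes were listed at D6 than at D0. Of the 76 genes, 65 were listed at D0, 50 on D2, 35 on D4, 37 on D6, 23 on D10 and 27 on D12, with 26 on D8. Of the 17 D6-only genes, 16 had a peak at D0 and 10 were listed again at D10 or D12. H3K27me3 was near 22 of the 76 genes at D8 and 6 at D6, with 17 at D8 only and 1, Foxc1, at D6 only, beside 6.05% and 2.81% of all genes. The opposite pairing, H3K27ac at D6 only and H3K27me3 at D8 only, was found for Cdh2, Fbln5 and Thy1, and for 194 of all genes, or 0.887%. The plot of both sets over the stages shows the epithelial share passing the fibroblast share after D6, with overlapping intervals at D8 and at D6.

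**Figure D4:**
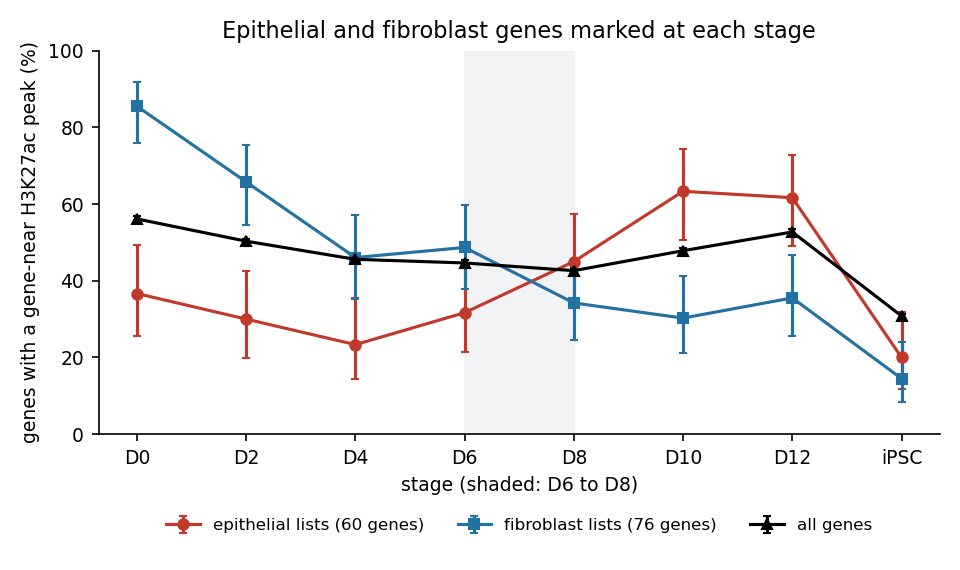
Share of the 60 epithelial and the 76 fibroblast and mesenchymal genes with a gene-near H3K27ac peak (%, vertical axis) at each stage (horizontal axis, D0 to iPSC), beside all genes, with 95% Wilson intervals. The epithelial genes stand at 31.7% at D6, 45.0% at D8 and 63.3% at D10.

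Signalling lists differed by few genes, to be read beside 5.66% of all genes at D8 only and 7.67% at D6 only. Of 13 genes of the LIF and STAT3 pathway, 3 had a peak at D8 only and 0 at D6 only: the receptor gene Lifr with 3.83 at D8 and the kinase genes Jak2 with 3.39 and Tyk2 with 3.24. The TGF-beta pathway, which favours the mesenchymal state, had 1 D8-only gene of 21, the inhibitor Smad7, and 3 D6-only genes, the ligands Tgfb1 and Tgfb2 and the co-repressor Ski. Effectors and targets of beta-catenin had 2 D8-only and 4 D6-only genes of 18, ERK feedback genes 1 and 2 of 15, and YAP and TEAD genes 1 and 2 of 18. Each of these 5 directions turned or was lost under at least 1 other setting. Among peaks with a −log10 p-value of at least 10 the LIF and STAT3 list had 1 D8-only and 2 D6-only genes and the beta-catenin list 4 and 1. With lists of equal length the beta-catenin list had 3 and 1, the ERK feedback list 3 and 2, the YAP and TEAD list 2 and 1 and the TGF-beta list 3 and 3. For all genes the equal-length shares were 7.65% and 5.86%. The AP-1 family had 2 D8-only genes of 14, Atf3 with 4.02 and Mafk with 3.86, and 1 D6-only gene, Fosb.

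Among lists of cell function, cell cycle genes had more D8-only and glycolysis genes more D6-only members, beside 5.66% and 7.67% of all genes. Of 20 cell cycle genes, 5 had a peak at D8 only (25%), Ccnb1 with 4.03, Ccne2 with 4.64, Mki67 with 4.74, Top2a with 4.97 and Mcm5 with 3.56, and 1 at D6 only (5%), Ccne1 with 3.67. The counts were 4 and 3 among peaks with a −log10 p-value of at least 10, and 5 and 3 with a gene window of 2.5 kb. The 5 genes had also been listed at D0 and D2, 4 of them at D4, and all 5 were listed at D10 and D12. Of 20 glycolysis and lactate genes, 0 had a peak at D8 only and 4 at D6 only (20%): the hexokinases Hk1 with 4.82 and Hk2 with 3.53, Gpi1 with 4.49 and Aldoa with 3.90, and all 4 were listed again at D10. With lists of equal length the glycolysis counts were 2 and 4, beside 7.65% and 5.86% of all genes. Of 14 senescence and p53 genes, 0 were D8-only and 1, Rb1, was D6-only. Of 12 housekeeping genes, 2 had a peak at D8 only, among them Actb with 2.98, and 1, Hprt with 4.80, at D6 only. For this list of 12 genes, which was not tied to the transition, the shares were 16.7% at D8 only and 8.33% at D6 only.

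**Figure D5:**
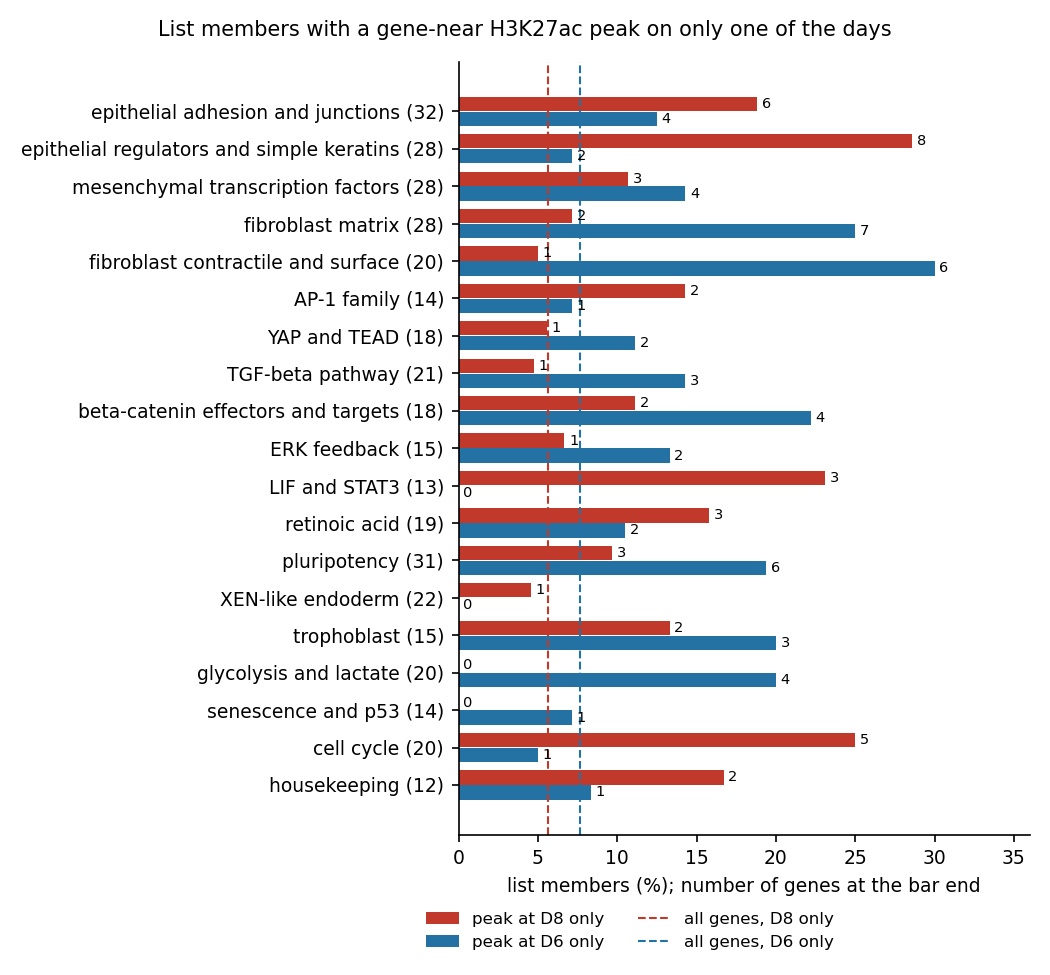
Share of each gene list (%, horizontal axis; list size in brackets) with a gene-near H3K27ac peak at D8 only or at D6 only, with the number of genes at the bar end and broken lines at the shares of all genes, 5.66% and 7.67%. The epithelial regulators reach 28.6% at D8 only, and the contractile and surface genes 30% at D6 only.

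Distal peaks were assigned to the gene whose start, or end where no start was annotated, was nearest to the summit, within 50 kb. Of all genes, 2558, or 11.7%, had at least 1 gained distal peak, and 3968, or 18.1%, had at least 1 lost distal peak. Of the 60 epithelial genes, 20 had gained distal peaks (33.3%), 28 peaks in all, and 19 had lost ones (31.7%), 22 peaks in all. A gained share of this size was not particular to them. In the other gene lists, cell type markers apart, it ran from 5% of cell cycle genes to 57.1% of TGF-beta genes. Of the 12 housekeeping genes, 41.7% had gained distal peaks. Of the 76 fibroblast and mesenchymal genes, 12 had gained ones, 15 peaks, and 37 had lost ones, 67 peaks, with 19 of the 28 matrix genes among the 37. Lost distal peaks were also near 11 of 15 ERK feedback genes (73.3%) and 6 of 8 endothelial markers (75%), against 48.7% of the fibroblast and mesenchymal genes. The part of other cell types in the lost distal peaks was not tested. Epcam had 2 gained distal peaks, at 32.6 and 26.2 kb. Dsp also had 2, beside a lost one with a fold enrichment of 4.90 at D6, and Grhl2 had both gained and lost ones. Esrp1, which had no gene-near peak on either day, had a gained peak at 1.40 kb that was also found at D10 and D12. Cdh2 had 5 lost distal peaks and no gained one, and Timp3 had 5 lost and 1 gained. Gained distal peaks lay closer to such a gene start or end, at a median distance of 30.4 kb, than lost ones, at 44.0 kb. For the distal D8 peaks that were kept the median was 32.0 kb.

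The genes with the most distal changes were largely outside these lists. Ece1 had 7 gained distal peaks, and Ywhaz, Sfi1, Lmo7, Sox17, Sel1l3, Snx29, Ap1s3, Slc38a1 and Podxl had 4 each. Sox17, the endoderm transcription factor gene, had 4 gained and 0 lost, none of them overlapped a D0 peak and all 4 were found at D10, whereas its gene-near peak was listed on both days. Of the 7 gained peaks of Ece1, 3 overlapped a D0 peak and 0 were found at D10. Zfp217 had 7 lost distal peaks, Cuedc1, Wdr95 and Ctif had 6, and Atp8b1, Cdh2, Dab2ip, Dpysl3, Kcnip1 and Tacc1 had 5. There were 15 genes with 4 or more gained distal peaks and 59 with 4 or more lost ones.

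The microRNA genes of the epithelial state were examined after the gene values had been seen. The cluster of miR-200b, miR-200a and miR-429, on the minus strand at chr4:156053905-156055750, had a gained peak at chr4:156059467-156059825, 3.83 kb upstream of its first hairpin, with a fold enrichment of 2.98 and a −log10 p-value of 9.78 at D8. Peaks over the same region had 3.91 at D10, 4.27 at D12 and 3.66 in iPSCs, and there was none at D0 to D6. That region had H3K4me3 and H3K18la peaks at D8 and not at D6, and an H3K27me3 peak at D6 and not at D8. Downstream of the cluster, a stronger peak at chr4:156044375-156045366 had 5.63 at D8. A peak over that downstream region was already listed at D4 with 3.87 and at D6 with 4.70. The cluster of miR-183, miR-96 and miR-182, on the minus strand at chr6:30165918-30169737, had a gained peak at chr6:30173621-30174009, 4.06 kb upstream, with 3.48 at D8. Peaks there had 4.33 at D10 and 3.87 at D12, and none was listed at D0 to D6 or in iPSCs. The region of that gained peak had H3K4me3 at D8 and at D6, and H3K18la at D8 and not at D6. Downstream of this cluster, a peak at chr6:30161098-30161536 had 3.72 at D6. The third cluster, miR-200c and miR-141, had no upstream peak at D8 or D6; its first one, 0.668 kb upstream, was in the D10 list. The seeds printed above are thus shared between a cluster whose upstream region entered the H3K27ac lists at D8 and one whose region entered at D10.

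The E-box was more frequent in D8-only than in D6-only promoters. Each promoter was classed by the peaks within 1.0 kb of its own start, so promoters of the same gene could fall in different classes. The E-box was found in 24.1% of 1169 D8-only promoters (21.8 to 26.7%) and 18.7% of 1596 D6-only promoters (16.9 to 20.7%). Of 7807 promoters with a peak on both days 15.6% held it. Promoters with a peak on neither day held it in 22.4%, and all 21262 RefSeq promoters of the same length in 19.7%. The D8-only share thus lay near that of unmarked promoters. Of 9 D8-only promoters of 8 epithelial genes, 7 held an E-box, with 2 in Epcam, 3 in Spint2 and 2 in Ocln. So did 5 of 6 epithelial promoters with a peak on both days and 1 of 4 D6-only ones. In promoters of fibroblast genes it was found in 2 of 14 D6-only ones and 2 of 18 with a peak on both days. The GRHL motif was rare everywhere, in 1.97% of D8-only, 2.07% of D6-only and 1.95% of all promoters, and Cgn, a D6-only gene, held one, AACAGGTT. The AP-1 motif was found in 5.99% of D8-only and 5.26% of D6-only promoters and in 6.99% of all, the TEAD motif in 11%, 13.7% and 13.6%, and the GATA motif in 7.44%, 6.27% and 9.65%. The KLF and SP motif GGGCGG, not capitalised above, was found in 65.4% of D8-only and 62.2% of D6-only promoters against 46.2% of all, and these promoters were richer in G and C, with medians of 61.3% and 60.7% against 56.3%. The SOX motif was found in 1.28% of D8-only, 2.07% of D6-only and 3.25% of all promoters, and the FOX motif in 2.40%, 2.01% and 3.01%. Each motif was searched on its own on both strands, so overlapping matches counted for each. A motif match is a description of the letters and shows no binding.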

How the data were processed

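H3K27ac CUT&Tag of mouse reprogramming cultures was compared between D8 and D6, with the H3K27ac lists of D0, D2, D4, D10, D12 and iPSCs and the D8 and D6 lists of H3K4me3, H3K18la, H3K27me3 and H3K9me3 as context. Build mm10 and the programs MACS2 2.1.2, Bowtie2 2.2.5, deepTools 3.4.3 and fastp 0.20.1 are named, with no roles, per the submitters' processing notes. The sources used here do not say if both libraries of a stage were pooled or if peaks were called against a control. For each mark and stage the authors deposited a single list of peaks in the narrowPeak layout. Each peak carries the authors' fold enrichment, a ratio with a pseudocount of 1, and the authors' −log10 p-value. The lists give no read totals, so pileup and background were solved for each peak from these values under a Poisson model, within 0.01 on the −log10 scale for 99.9% of peaks. Depth beyond that is unknown.

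An overlap of 1 bp or more counted as shared. Genes were 21883 protein-coding genes of the RefSeq table of GRCm38.p6, whose coordinates are those of mm10. A peak was gene-near within 1.0 kb of a RefSeq start (17491 genes) or, for the 4392 genes without one, of either gene end. Other peaks, also those inside genes, were distal. They were assigned to the gene with the start or end so used that was nearest to the summit, within 50 kb. Lists of equal length kept the peaks with the highest −log10 p-values. With 1 list per stage there is no test, and shares have 95% Wilson intervals. Besides list members and the microRNA clusters, genes were named by rank: the 10 with the highest fold at D8 without a D6 peak, the 10 with the highest at D6 without a D8 peak, the 10 with the highest at D8 among those with peaks at D8, D10 and D12 and none at D0 to D6, and the 10 with the most gained and the most lost distal peaks.

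The comparison, the gene lists and their members were chosen with earlier results of these data known. The planned motif search under peaks was replaced by one in RefSeq promoters, because a genome of the build was not used here, and the E-box was added to it after the data were seen. Alternatives tried were equal list length, a −log10 p threshold of 10, sharing of 50% of the shorter peak, a gap of 1.0 kb counted as kept, other gene windows (2.5 kb, at least 200 bp covered) and other distal windows (20 and 100 kb). The use of both ends for every gene and the alternatives for H3K27me3 were added after seeing the data. A few list members are counted in their lists but not reported here by name. Steps were tested on simulated data. Python 3.11.15, numpy 2.4.6, pandas 2.3.3, scipy 1.17.1 and matplotlib 3.10.9 were used.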

Additional observations from a re-analysis of the deposited data

Results flagged for a closer look

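Peaks outside the comparison were present on sequences that were left out. The D8 list held 48 such H3K27ac peaks and the D6 list 20, of which 5 at D8 and 3 at D6 were mitochondrial and 43 at D8 and 17 at D6 lay on unplaced sequences. Their median fold enrichment was 4.08 at D8 and 3.79 at D6, and the highest was 12.3 at D8 and 8.45 at D6. These peaks have no gene-near class and no comparison was made with them.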

How the results depend on the processing

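Of the recomputed values 69 stayed close to those reported and 47 moved. The direction of single gene lists was less stable: the balance of D8-only and D6-only genes turned at equal length for the matrix, mesenchymal factor, beta-catenin, ERK feedback and YAP and TEAD lists and the trophoblast list, and with the threshold of 10 for the beta-catenin and LIF and STAT3 lists. At equal length the order of gene-near gains and losses turned too. For H3K27ac this cut removes D6 peaks only, so D8-only counts could not fall and D6-only counts could not rise. Over all genes the shares were then 7.65% at D8 only and 5.86% at D6 only. No paired analysis was possible because 1 list was deposited per stage. With lists of equal length, 41.8% of D8 peaks were gained (21.4% gene-near, 62.2% distal) and 42.0% of D6 peaks were lost (17.5% and 64.3%). With a −log10 p threshold of 10, 30.5% were gained (20.1% and 51.4%) and 47.0% lost (25.0% and 73.0%), and with 50% of the shorter peak shared, 39.0% were gained (19.4% and 58.7%) and 53.6% lost (23.7% and 73.8%). With a gap of 1.0 kb counted as kept, 33.6% were gained and 49.3% lost, and with a window of 2.5 kb 18.3% of gene-near peaks were gained and 23.7% lost. The epithelial surplus of D8-only over D6-only genes was 13 at equal length and 4 with the threshold of 10, which left 9 D8-only genes. For fibroblast genes, equal length left 11 D6-only genes and a surplus of -2, and the threshold left 2 D8-only genes. Over all settings the epithelial surplus lay between 4 and 13 and the fibroblast surplus between -16 and -2. With all H3K27ac lists cut to the shortest, 38.7% of gained and 13.9% of lost peaks were found at D10 and 41.4% of gained peaks had a D0, D2 or D4 peak, and with the threshold these were 58.3%, 23.7% and 66.7%. With distal peaks within 20 kb, 7 fibroblast genes had a gained one. For H3K27me3, equal length left 3 epithelial genes at D8 only, and 11 fibroblast genes at D8 only and 2 at D6 only, a surplus of 9. The threshold left 2 epithelial genes at D8 only and 9 at D6 only, a surplus of -7, and 9 and 0 fibroblast genes, a surplus of 9. Stricter lists hold fewer peaks by construction; the cause of the other shifts was not tested. The gained miR-200b and miR-183 peaks, with −log10 p-values of 9.78 and 9.40 at D8, fall under the threshold of 10. Distal shares exceeded gene-near shares in each setting above for which both are given.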

Other observations

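Genes of the final pluripotent state had more members with a peak at D6 only than at D8 only. With lists of equal length they had as many, 4 and 4, where all genes gave 7.65% at D8 only and 5.86% at D6 only. Of 31 pluripotency genes, 3 had a gene-near H3K27ac peak at D8 only (9.68%) and 6 at D6 only (19.4%), beside 5.66% and 7.67% of all genes. The D8-only genes were Klf2, which had a fold enrichment of 3.50 at D8 and was listed at every stage but D6, Fgf4, with 3.91 at D8 and at no other stage, and Fbxo15, with 4.07 at D8 and first listed there. The D6-only genes were Tfcp2l1 (4.11), Prdm14 (3.91), Dppa3 (4.39), Utf1 (4.04), Dnmt3l (4.38) and Esrrb (3.75), all regulators or markers of the pluripotent or germ line state. Of these, Esrrb and Utf1 had a gene-near peak at D6 and at no other stage. Over the series 7, 9, 8, 12, 9, 12, 20 and 19 of the 31 genes were listed at D0, D2, D4, D6, D8, D10, D12 and in iPSCs.

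Lists of other lineages differed by few genes, beside 5.66% of all genes at D8 only and 7.67% at D6 only. Of 15 trophoblast genes, Tead4 and Krt7 had a peak at D8 only (13.3%) and Hand1, Peg10 and Phlda2 at D6 only (20%). Of 22 genes of extraembryonic endoderm (XEN), 1 had a peak at D8 only (4.55%), the endocytic receptor gene Lrp2 with 5.11, and 0 at D6 only. Among 19 retinoic acid genes the receptor genes Rara and Rxrg and the retinol-binding protein gene Rbp4 had a peak at D8 only (15.8%), and the receptor genes Rarb, with 4.11, and Rarg, with 4.15, at D6 only (10.5%).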
